A study of Rattus norvegicus with 19 samples.

Results

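Oxidative phosphorylation genes were examined in the retina of control, diabetic and insulin-treated diabetic rats. The set comprised every gene whose annotated symbol begins with Nduf, Cox4 to Cox8, Atp5, Uqcr or Sdha to Sdhd, the families that name the nuclear-encoded subunits of respiratory complexes I to IV and of ATP synthase together with several of their assembly factors. The array annotation listed 74 such genes, each with 1 probe, and 68 of them were detected, meaning that in 1 or more of the groups all arrays gave a detection p under 0.05, among 7345 named genes detected in all. All 68 were in fact detected on all 19 arrays. They comprised 29 genes of complex I, 4 of complex II, 5 of complex III, 8 of complex IV, 12 of ATP synthase and 10 assembly factors, which are proteins that help build a complex without being part of it. The other 58 genes were counted as subunits by their symbols alone, among them Ndufs6-ps1, which is named as a pseudogene.

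Retinal RNA was hybridized to Illumina RatRef-12 arrays from male Sprague-Dawley rats in 3 groups. Control rats (n = 7) received an intraperitoneal injection of citrate vehicle, STZ rats (n = 5) received 65 mg/kg streptozotocin, a toxin of the insulin-producing beta cells, and STZ + insulin rats (n = 7) received the same dose and, from week 6, subcutaneous 26 mg insulin pellets, with a further pellet when glucose or body weight rose past a limit. All retinas were taken 3 months after injection, whole and with the pigment epithelium, after removal of the lens and vitreous, and only RNA of high integrity was used. Controls were age-matched, and the study left out arrays of both diabetic groups for array quality. The p-values measure the spread between these arrays, as the labels do not state that each array was a separate rat. Diabetes by streptozotocin is a chemical loss of insulin, and each array averages all cells of the retina, so fewer cells of a type and less RNA per cell cannot be told apart.

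The respiratory chain passes electrons from NADH and succinate to oxygen and pumps protons across the inner mitochondrial membrane, and ATP synthase lets the protons back to make ATP. Complex I accepts electrons from NADH, complex II is the citrate cycle enzyme succinate dehydrogenase, complex III hands electrons to cytochrome c and complex IV reduces oxygen. Photoreceptors pack their inner segments with mitochondria, and the retina is among the tissues that use most oxygen for their mass. Complexes I, III and IV and ATP synthase also hold subunits encoded by mitochondrial DNA, whereas complex II is wholly nuclear-encoded, and the symbols searched here name nuclear genes.

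The arrays lay on 2 BeadChips that each held all 3 groups. Between 11239 and 11824 probes were detected per array, and log2 signals of arrays of 1 group correlated with r from 0.962 to 0.991. The 10 detected photoreceptor markers, such as the rod transducin gene Gnat1 and the arrestin gene Sag, had summed signals of 80567 to 89768 in controls, 90623 to 106192 in STZ rats and 75068 to 102720 in STZ + insulin rats, with 0 of 10 past the adjusted threshold in any comparison. All STZ sums lay above all control sums. Of the 10 genes 8 had a higher mean in STZ than in control rats and 2 a lower mean. Between STZ + insulin and STZ rats 3 had a higher mean and 7 a lower mean. Nrl ran against the sums, at -0.30 and 0.39 in these 2 comparisons (adjusted p = 0.203 and 0.0614, limma). 1 array, STZ replicate 2, stood out in the respiratory genes, carrying 36 of the 58 subunits at their highest value of all 19 arrays. It was picked for these values, and the medians and counts over genes that it moves are given without it too. Without that array 112 of 10792 detected probes were called in STZ against control and 549 in STZ + insulin against STZ, against 299 and 1117 of 10718 with it. Lens genes differed strongly between groups. The 9 detected lens markers, such as the crystallins Crygd and Crygb, summed to 4034 to 55998 in controls (median 37311), 11349 to 80418 in STZ rats (median 47056) and 1234 to 15306 in STZ + insulin rats (median 7218), and 8 of 9 were lower in STZ + insulin than in STZ rats after adjustment, whereas 0 of 9 passed between STZ and control rats, with 3 higher at an unadjusted p under 0.05. Of 5 detected Müller glia markers 1, Vim, was lower in STZ + insulin than in STZ rats after adjustment (log2 difference -0.93, adjusted p = 0.0152, limma). Of 6 detected skeletal muscle markers 1, the glycogen phosphorylase gene Pygm, was lower (-0.39, adjusted p = 0.0346). Of the 5 Müller glia markers 4 had a lower mean in that comparison and 1 a higher mean. Their summed signals were 13469 to 17616 in controls, 15285 to 19732 in STZ rats and 12570 to 14717 in STZ + insulin rats. In pigment epithelium, blood and ganglion cell markers 0 genes passed in any comparison. Summed signals of the 5 annotated pigment epithelium markers, 4 of them detected, were 2701 to 4467 in controls, 2132 to 2566 in STZ rats and 1935 to 3725 in STZ + insulin rats. Of the 4 detected genes 3 were lower in STZ than in control rats at an unadjusted p under 0.05, and the part of these markers in the results on oxidative phosphorylation genes was not tested.

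No subunit transcript of the 5 complexes was called or differed by more than 1.2-fold between the groups, and the called differences lay in assembly factors. In STZ against control rats 1 of the 68 genes passed an adjusted p under 0.05 (limma, Benjamini-Hochberg over 10718 detected probes), the complex II assembly factor Sdhaf1, which was lower. Over all detected probes 2.79% passed in that comparison, so 1 in 68 was no more than the background. Of the 299 probes called, 31.8% were higher in STZ rats, and 56.5% of those called after quantile normalization. Between STZ + insulin and control rats 0 of 68 genes passed, beside 0.00933% of all probes. Between STZ + insulin and STZ rats 3 genes passed, Sdhaf1 and the complex I assembly factors Ndufaf1 and Ndufaf5, all higher with insulin, beside 10.4% of all probes. Among the 58 subunits 0 passed in any of the 3 comparisons.

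**Figure D1:**
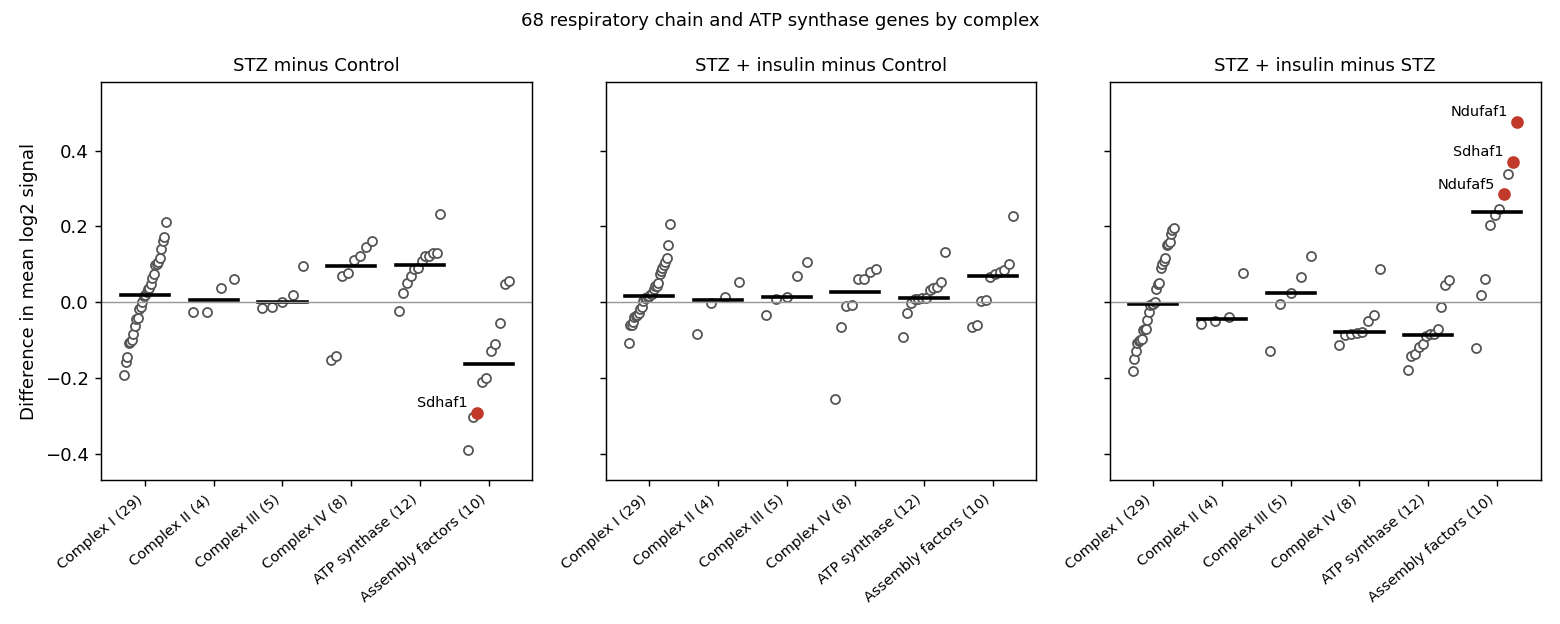
Differences in mean log2 signal (vertical axis) of the 68 genes in the 3 comparisons, grouped by complex with the number of genes in brackets. Each circle is a gene, filled red and named where the adjusted p was under 0.05, and bars are medians. The assembly factors had a median of -0.16 in STZ minus control and 0.24 in STZ + insulin minus STZ, while each complex's median lay within 0.10 of 0.

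The median log2 difference of the 58 subunits was 0.04 between STZ and control rats, 0.01 between STZ + insulin and control rats and -0.04 between STZ + insulin and STZ rats. Over all detected probes the medians were -0.07, 0.00 and 0.06. The differences of single subunits between STZ and control rats ran from -0.19 to 0.23, with a median standard error of 0.09, and in each of the 3 comparisons 0 of 58 differed by more than 1.2-fold. The 95% interval of the difference lay within 1.2-fold in both directions for 21 of 58 subunits in STZ against control, 40 in STZ + insulin against control and 20 in STZ + insulin against STZ. For the remaining subunits the interval reached past 1.2-fold on at least 1 side. Of all detected probes 18.93%, 35.54% and 17.02% had an interval within 1.2-fold, in the same order of comparisons. The shares of the subunits were 36.21%, 68.97% and 34.48%. A difference of more than 1.2-fold was found in 21.7%, 10.3% and 26.5% of all detected probes. The precision differed by complex. In STZ against control the interval lay within 1.2-fold for 9 of 29 complex I, 4 of 4 complex II and 4 of 5 complex III genes. It did so for 0 of 8 complex IV and 4 of 12 ATP synthase genes. In simulated data of the STZ and control groups a log2 change of 0.3 was called in 4.5% of changed probes and one of 0.5 in 54%. The changed probes were drawn from all detected probes, with a median standard error of 0.12, so these shares are not specific to the subunits.

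By complex, the medians of STZ minus control were 0.02 for complex I, 0.01 for complex II, 0.00 for complex III, 0.09 for complex IV and 0.10 for ATP synthase. Between STZ + insulin and STZ rats they were 0.00, -0.04, 0.02, -0.08 and -0.09 in the same order. Both comparisons use the same STZ arrays. Of the 12 ATP synthase genes 11 had a higher mean in STZ than in control rats, as had 6 of 8 complex IV genes and 16 of 29 complex I genes. These values depended on STZ replicate 2, an array picked because these genes were highest there. Leaving it out was bound to lower the STZ mean of the 47 of 58 subunits that were highest on it among STZ arrays. The array with the lowest subunit median, STZ replicate 3, was not left out in this way by complex. Without STZ replicate 2 the medians of STZ minus control were -0.06 for complex I, 0.01 for complex II, 0.01 for complex III, 0.00 for complex IV and 0.03 for ATP synthase, and the subunit median was -0.02. A higher mean in STZ than in control rats was then found for 9 of 12 ATP synthase genes, 4 of 8 complex IV genes, 6 of 29 complex I genes and 25 rather than 38 of all 58 subunits. The medians of STZ + insulin minus STZ without it were 0.09, -0.01, 0.08, 0.04 and -0.01 in the same order of complexes, and 0.04 instead of -0.04 over all subunits.

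The median of the subunits on STZ replicate 2 lay 0.33 log2 units above the control mean, against -0.16 to 0.06 on the other 4 STZ arrays and -0.06 to 0.05 on the controls. STZ + insulin replicate 4 was the next highest at 0.20, with 37 of 58 subunits at their highest value in that group, and the other STZ + insulin arrays lay from -0.12 to 0.06. On STZ replicate 2 the medians were 0.33 for complex I, 0.46 for complex IV and 0.44 for ATP synthase, but 0.07 for complex II and 0.10 for complex III. After quantile normalization its subunit median was 0.29. The median of all detected probes was -0.13 on that array, the lowest of the 19.

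Single genes showed the same array. Ndufs5, an accessory subunit of complex I, read 11.99, 12.77, 11.64, 12.15 and 12.07 on STZ replicates 1 to 5, beside controls of 11.83 to 12.20. Cox5b, a zinc-binding subunit of complex IV, read 10.54, 11.26, 10.18, 10.67 and 10.65. Replicate 2 was highest and replicate 3 lowest in both. Other genes ran the other way on replicate 2. Ndufs1, the subunit of complex I with most of the iron-sulfur clusters of its NADH-oxidizing arm, read 10.16, 9.90, 10.29, 10.09 and 10.18, so that replicate 2 was the lowest of the group, and the same array was lowest of the group for Sdha at 10.60 and Uqcrc2 at 11.39.

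**Figure D2:**
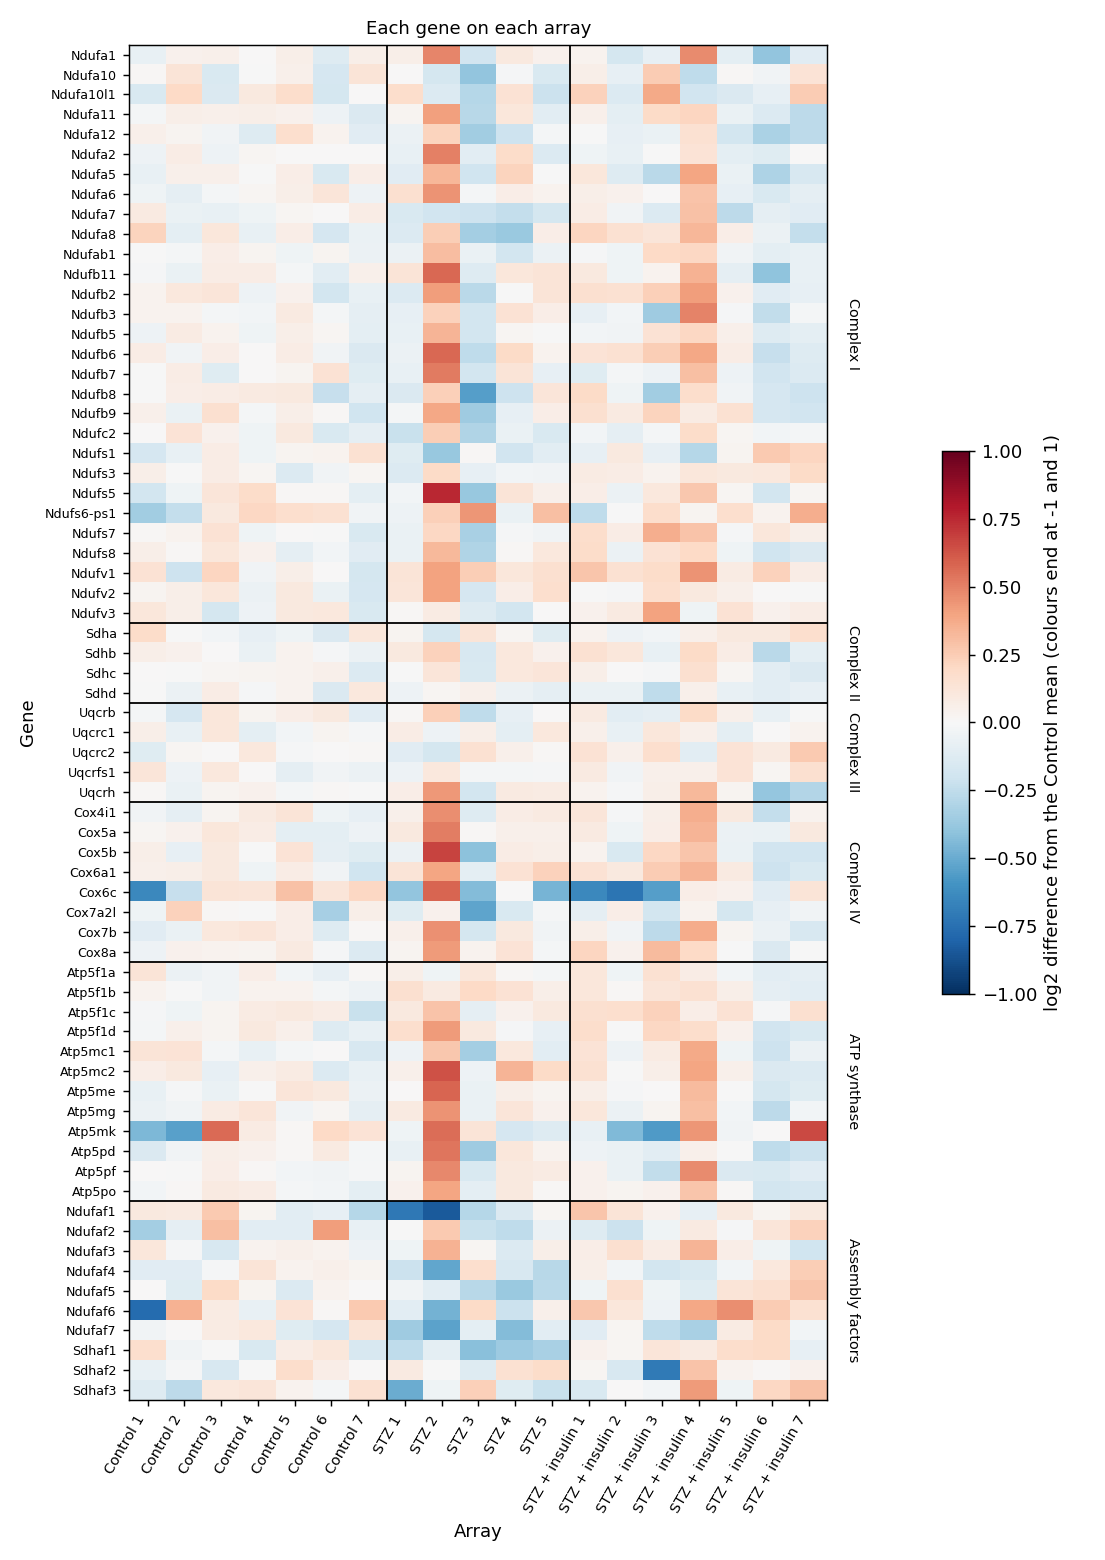
Log2 difference of each of the 68 genes (rows, by complex) from its control mean on each of the 19 arrays (columns, by group), red higher and blue lower. STZ replicate 2 and STZ + insulin replicate 4 are red across most of complexes I and IV and ATP synthase, and on STZ replicate 2 the assembly factors at the foot had a median of -0.10.

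Complex I had the subunits nearest to a call. Ndufv1, which holds the flavin that takes electrons from NADH, had log2 signals of 9.60 to 10.02 in controls (median 9.80), 9.93, 10.20, 10.04, 9.92 and 9.96 in STZ rats and 9.87 to 10.25 in STZ + insulin rats (median 9.98). All 5 STZ arrays lay above the control mean, but the groups overlapped. The difference was 0.21 ± 0.09 (standard error) in STZ against control (adjusted p = 0.165, limma) and 0.21 in STZ + insulin against control (adjusted p = 0.362), and this was the 1 gene of 68 with an unadjusted p under 0.05 in the latter comparison, beside 8.98% of all probes. Ndufa7, an accessory subunit near the NADH-oxidizing arm, read 8.49 to 8.65 in controls (median 8.56), 8.40, 8.37, 8.35, 8.32 and 8.38 in STZ rats and 8.29 to 8.85 in STZ + insulin rats (median 8.47). All STZ values lay below all control values, with a difference of -0.19 ± 0.08 (adjusted p = 0.161), and the methods' t-test gave an adjusted p of 0.0246. Ndufs7, which carries the last iron-sulfur cluster before ubiquinone, read 9.79, 10.07, 9.54, 9.85 and 9.82 in STZ rats and 9.85 to 10.22 in STZ + insulin rats (median 9.97). Its difference of 0.20 ± 0.08 between these groups had an adjusted p of 0.141, and STZ replicate 2 lay within the insulin range. Ndufs3, a core subunit of the ubiquinone-binding arm, had a mean of 10.45 ± 0.07 (SD, n = 7) in controls, 10.43 ± 0.13 (n = 5) in STZ rats and 10.55 ± 0.05 (n = 7) in STZ + insulin rats.

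Between STZ and control rats the genes of complexes II and III spanned the narrowest range of differences, from -0.03 to 0.10. They were also the smallest sets, with 4 and 5 genes, and a range tends to widen with the number of genes. Sdha, the flavoprotein that oxidizes succinate, had means of 10.78 ± 0.11 (SD, n = 7) in controls, 10.75 ± 0.12 (n = 5) in STZ rats and 10.83 ± 0.08 (n = 7) in STZ + insulin rats. Sdhd, which anchors the complex in the membrane, had means of 10.18 ± 0.08, 10.15 ± 0.06 and 10.09 ± 0.09 in the same order. All 4 complex II genes had a 95% interval within 1.2-fold in each of the 3 comparisons. In complex III the Rieske iron-sulfur protein gene Uqcrfs1 had means of 11.59 ± 0.08, 11.59 ± 0.06 and 11.66 ± 0.07, with an interval of -0.12 to 0.12 for STZ minus control. Uqcrc2, a core protein of that complex, had means of 11.57 ± 0.07, 11.55 ± 0.13 and 11.67 ± 0.11. In both genes the 3 groups overlapped.

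In complex IV, Cox5a, a subunit on the matrix side, read 10.91 to 11.12 in controls (median 11.03), 11.10, 11.52, 11.02, 11.06 and 11.06 in STZ rats and 10.94 to 11.34 in STZ + insulin rats (median 11.08). Cox6a1, the form of subunit 6a made outside heart and muscle, read 12.66 to 12.96 in controls (median 12.91), 12.99, 13.25, 12.76, 13.0003 and 13.09 in STZ rats and 12.65 to 13.20 in STZ + insulin rats (median 12.95). Replicate 2 was the highest STZ array for both genes. The differences of STZ minus control were 0.14 ± 0.09 and 0.16 ± 0.10 (adjusted p = 0.368 and 0.365, limma). Without replicate 2 they were 0.05 and 0.10 (adjusted p = 0.794 and 0.672). Cox6c, a small membrane subunit, had the widest spread within groups of the complex, at 5.77 to 6.71 in controls (median 6.54), 6.02, 6.99, 5.98, 6.42 and 5.95 in STZ rats and 5.68 to 6.54 in STZ + insulin rats (median 6.30). Cox6a2 and Cox8b, forms known from heart and skeletal muscle, were not detected by the rule used, Cox6a2 on 0 arrays and Cox8b on 2.

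In ATP synthase, Atp5f1b, the catalytic beta subunit, read 13.17 to 13.25 in controls (median 13.21), 13.38, 13.30, 13.42, 13.36 and 13.27 in STZ rats and 13.11 to 13.37 in STZ + insulin rats (median 13.28). All 5 STZ values lay above all control values. The difference of 0.13 ± 0.06 had an adjusted p of 0.217 by limma and of 0.0493 by the methods' t-test. Atp5mc2, one of the genes for the rotating c ring, read 10.83 to 11.06 in controls (median 11.02), 11.02, 11.60, 10.92, 11.31 and 11.16 in STZ rats and 10.83 to 11.37 in STZ + insulin rats (median 11.02), a difference of 0.23 ± 0.11 between STZ and control rats (adjusted p = 0.225). Without STZ replicate 2 the Atp5mc2 difference was 0.13 (adjusted p = 0.556, limma). Atp5f1c, the gamma subunit of the central stalk, had means of 10.98 ± 0.11 (SD, n = 7), 11.07 ± 0.13 (n = 5) and 11.11 ± 0.08 (n = 7). Atp5mk, a small membrane subunit of the enzyme's dimers, spread most of the ATP synthase genes among controls and among STZ + insulin rats, at 7.60 to 8.71 in controls (median 8.22), 8.09, 8.70, 8.27, 7.97 and 8.01 in STZ rats and 7.57 to 8.80 in STZ + insulin rats (median 8.11). Its 3 groups overlapped. At an unadjusted p under 0.05, 3 of 58 subunits were higher in STZ than in control rats (Ndufv1, Atp5f1b and Atp5mc2) and 1 was lower (Ndufa7), beside 5.36% higher and 15.5% lower of all probes.

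In STZ against control and in STZ + insulin against STZ the largest single differences were among the assembly factors, whereas in STZ + insulin against control the complex IV gene Cox6c had the largest (-0.26, adjusted p = 0.789, limma). Their median log2 difference was -0.16 in STZ against control, 0.07 in STZ + insulin against control and 0.24 in STZ + insulin against STZ, where the first and the last share the STZ arrays. The mean was lower in STZ than in control rats for 8 of 10, beside 64.7% of all detected probes, and higher in STZ + insulin than in STZ rats for 9 of 10, beside 61.3% of all probes. At an unadjusted p under 0.05, 4 of 10 were lower in STZ than in control rats, beside the 15.5% of all probes, and 6 of 10 were higher in STZ + insulin than in STZ rats, beside 17.7% of all probes higher and 9.41% lower. The median over the 10 genes was below the control mean on all 5 STZ arrays, from -0.19 to -0.08, beside -0.05 to 0.08 on the controls and -0.05 to 0.14 on the STZ + insulin arrays. The median over all detected probes was likewise below the control mean on all 5 STZ arrays, from -0.13 to -0.01. After quantile normalization the assembly factor medians were -0.12 to -0.05 on the STZ arrays and -0.05 to 0.09 on the controls, and the median difference of STZ minus control was -0.10 in place of -0.16, or -0.094 with neqc, the background correction and quantile normalization of limma for these arrays. On STZ replicate 2, where the subunits were highest, it was -0.10, and without that array the assembly factor medians were -0.14 in STZ against control and 0.22 in STZ + insulin against STZ.

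**Figure D3:**
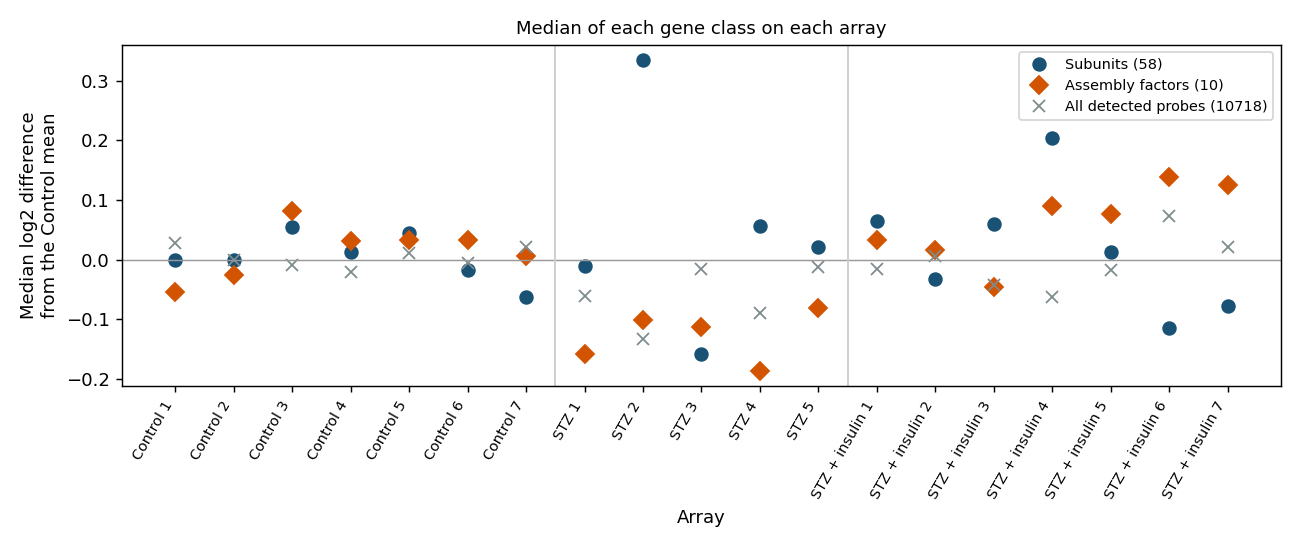
Median log2 difference from the control mean (vertical axis) over 58 subunits, 10 assembly factors and 10718 detected probes on each of the 19 arrays (horizontal axis). The subunit median of STZ replicate 2 is 0.33 and the assembly factor medians of the 5 STZ arrays lie from -0.19 to -0.08.

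Sdhaf1 encodes a mitochondrial protein that helps to place iron-sulfur clusters into the Sdhb subunit of succinate dehydrogenase. Its log2 signal was 11.25 to 11.58 in controls (median 11.41), 11.16, 11.32, 10.998, 11.05 and 11.09 in STZ rats and 11.33 to 11.61 in STZ + insulin rats (median 11.50). All STZ values lay below all STZ + insulin values, and 4 of the 5 lay below every control, the exception being replicate 2. The signal fell by 0.29 ± 0.08 (standard error) in STZ against control, a 1.22-fold decrease (adjusted p = 0.0444, limma), and was 0.37 ± 0.08 higher in STZ + insulin than in STZ rats, a 1.29-fold difference (adjusted p = 0.00828). Against control, STZ + insulin rats differed by 0.08, with a 95% interval of -0.07 to 0.22. On BeadChip 1 and 2 taken alone the STZ minus control difference was -0.39 and -0.22 and the STZ + insulin minus STZ difference was 0.41 and 0.35. The call between STZ and control rats stood close to the threshold: it was kept in 6 of 19 fits that each left out 1 array, those without control 4, STZ 2 or STZ + insulin 3, 4, 6 or 7, and lost in the other 13, with an adjusted p of 0.0395 to 0.0888 and a difference of -0.34 to -0.26. It was also lost after quantile normalization (-0.28, adjusted p = 0.0520) and when the signals were centred on the median of the detected probes (-0.23, adjusted p = 0.174), and kept with the BeadChip as a block (adjusted p = 0.0490). The higher signal with insulin was called in 19 of 19 fits without 1 array and with the BeadChip as a block (adjusted p = 0.0104), but not on BeadChip 1 or 2 alone (adjusted p = 0.180 and 0.144). Its target subunit gene Sdhb had an STZ minus control difference of 0.06 ± 0.08 (adjusted p = 0.694).

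Ndufaf1, which works with Ecsit and Acad9 on the membrane arm of complex I, read 6.61 to 7.15 in controls (median 6.92), 6.18, 6.06, 6.61, 6.75 and 6.91 in STZ rats and 6.81 to 7.17 in STZ + insulin rats (median 6.99). Replicates 1 and 2 were far below the other STZ arrays, and replicate 5 lay within the insulin range. The difference was -0.39 ± 0.13 in STZ against control (adjusted p = 0.0907) and 0.48 ± 0.13 in STZ + insulin against STZ, 1.39-fold higher (adjusted p = 0.0253, limma). The latter call was lost without STZ replicate 1 (0.40, adjusted p = 0.0675) or STZ replicate 2 (0.37, adjusted p = 0.0781), and the difference was 0.16 on BeadChip 1 and 0.69 on BeadChip 2. It was lost too with no detection filter, with only the groups compared, by the methods' t-test after adjustment and on BeadChip 1 alone (adjusted p of 0.0607 to 0.626). Without STZ replicate 5 the difference between STZ and control rats passed, at -0.49 (adjusted p = 0.0382).

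Ndufaf5, which hydroxylates an arginine of the complex I subunit Ndufs7, read 10.05 to 10.38 in controls (median 10.20), 10.16, 10.09, 9.92, 9.83 and 9.92 in STZ rats and 10.07 to 10.47 in STZ + insulin rats (median 10.32). All 5 STZ values lay below the control mean and 3 of them below every other array. The difference was -0.21 ± 0.08 in STZ against control (adjusted p = 0.146) and 0.29 ± 0.08 in STZ + insulin against STZ, 1.22-fold higher (adjusted p = 0.0338, limma), with 0.31 on BeadChip 1 and 0.33 on BeadChip 2. The call was kept in 13 of 19 fits that left out 1 array. It was lost without STZ replicate 4 or 5 (0.25 and 0.27, adjusted p = 0.0919 and 0.0581) and without STZ + insulin replicate 2, 5, 6 or 7 (0.27, 0.28, 0.27 and 0.25, adjusted p = 0.0636, 0.0608, 0.0635 and 0.0684). It was lost too with no detection filter, after quantile normalization or centring on the median of the detected probes, with only the groups compared, by the methods' t-test after adjustment and on either BeadChip alone (adjusted p of 0.0505 to 0.330).

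**Figure D4:**
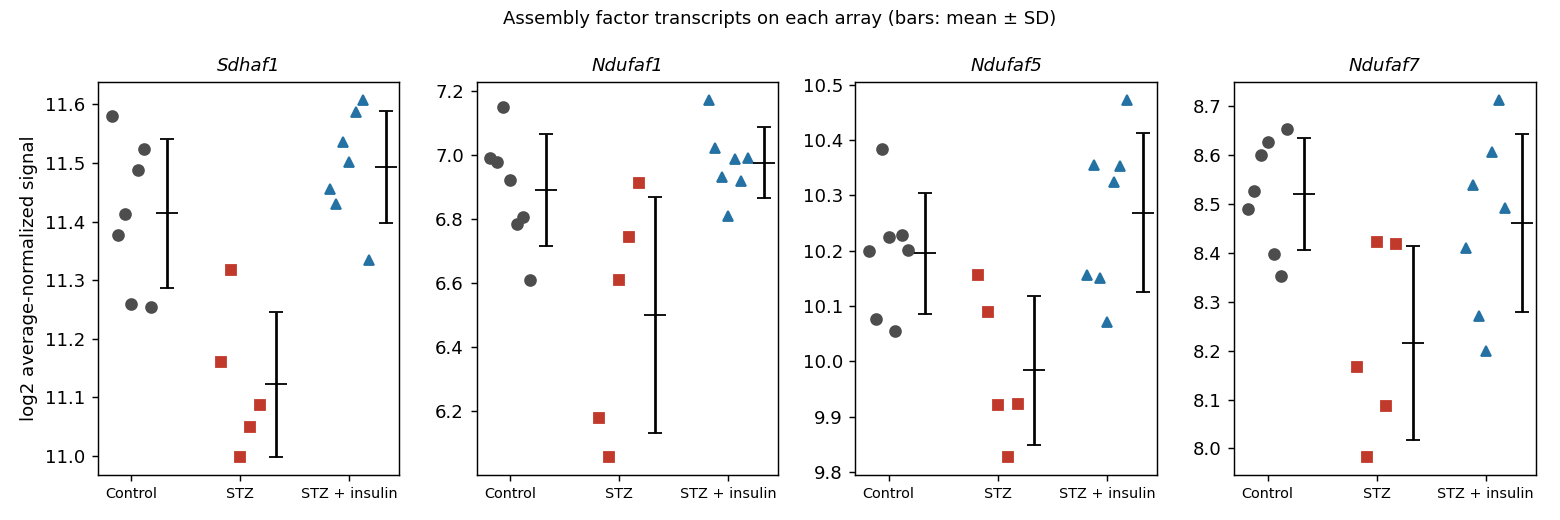
Log2 average-normalized signal (vertical axes, not starting at 0) of Sdhaf1, Ndufaf1, Ndufaf5 and Ndufaf7 on each array of the 3 groups, with the group mean and SD as bars. The 5 STZ values of Sdhaf1 lie between 10.998 and 11.32, below all 7 STZ + insulin values.

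Of the other assembly factors, Ndufaf7, a methyltransferase needed in complex I assembly, read 8.35 to 8.65 in controls (median 8.52), 8.17, 7.98, 8.42, 8.09 and 8.42 in STZ rats and 8.20 to 8.71 in STZ + insulin rats (median 8.49). All 5 STZ values lay below the control mean, the difference was -0.30 ± 0.10 (adjusted p = 0.0879), and that of STZ + insulin minus STZ was 0.24 (adjusted p = 0.114). Ndufaf6, needed early in complex I assembly, read 7.90 to 9.02 in controls (median 8.76), 8.57, 8.20, 8.86, 8.46 and 8.72 in STZ rats and 8.62 to 9.14 in STZ + insulin rats (median 8.93). Its STZ + insulin minus STZ difference was 0.34 ± 0.16 (adjusted p = 0.167), and 1 control stood far below the rest. Ndufaf4, a partner of Ndufaf3 in the early ubiquinone-binding module, had differences of -0.20 in STZ against control and 0.20 in STZ + insulin against STZ (adjusted p = 0.249 and 0.184), and the latter ranged with 1 array left out from 0.12 without STZ replicate 2 (adjusted p = 0.460) to 0.30 without STZ replicate 3 (adjusted p = 0.0320). Without replicate 2 the former was -0.12 (adjusted p = 0.575). Ndufaf3 itself had 0.05 and 0.02, and Ndufaf2, which acts late in complex I assembly, -0.05 and 0.06. For the complex II factors Sdhaf3 and Sdhaf2, the latter needed to attach flavin to Sdha, the STZ minus control differences were -0.13 and 0.06 (adjusted p = 0.56 and 0.822).

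Lens signal moved with the insulin comparison. The mean log2 difference of the 9 lens genes from the control mean was -3.35 to -0.17 on the STZ + insulin arrays and -0.92 to 3.06 on the STZ arrays. With this mean as a covariate the STZ + insulin minus STZ differences were 0.33 for Sdhaf1, 0.39 for Ndufaf1 and 0.19 for Ndufaf5 (adjusted p = 0.213, 0.372 and 0.522), and 2 of all detected probes were called. The Sdhaf1 difference between STZ and control rats was then -0.28 (adjusted p = 0.0976). As the lens mean was lower on most STZ + insulin arrays than on most STZ arrays, this fit cannot tell lens material and treatment apart. The part of lens material in these results was not tested.

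The promoters of Sdhaf1, Ndufaf1 and Ndufaf5, the 3 genes called, are shown as they carry the core motifs of factors known to drive respiratory genes. Each runs from 250 bases before to 30 after the RefSeq gene start on build GRCr8, 5′ to 3′ on the gene's strand, with matches in capitals.
Sdhaf1, chr1:94704582-94704861, minus strand: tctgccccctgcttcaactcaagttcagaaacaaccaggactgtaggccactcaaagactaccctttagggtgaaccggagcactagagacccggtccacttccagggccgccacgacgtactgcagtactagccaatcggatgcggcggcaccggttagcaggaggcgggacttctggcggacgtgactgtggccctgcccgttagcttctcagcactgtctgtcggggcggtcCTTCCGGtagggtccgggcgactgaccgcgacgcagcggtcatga
Ndufaf1, chr3:127103991-127104270, minus strand: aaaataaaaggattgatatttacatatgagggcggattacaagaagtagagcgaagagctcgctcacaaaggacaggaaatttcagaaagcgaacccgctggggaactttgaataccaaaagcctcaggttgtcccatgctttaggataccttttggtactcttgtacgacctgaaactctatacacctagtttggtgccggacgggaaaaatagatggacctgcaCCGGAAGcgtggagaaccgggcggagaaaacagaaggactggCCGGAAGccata
Ndufaf5, chr3:147961362-147961641, plus strand: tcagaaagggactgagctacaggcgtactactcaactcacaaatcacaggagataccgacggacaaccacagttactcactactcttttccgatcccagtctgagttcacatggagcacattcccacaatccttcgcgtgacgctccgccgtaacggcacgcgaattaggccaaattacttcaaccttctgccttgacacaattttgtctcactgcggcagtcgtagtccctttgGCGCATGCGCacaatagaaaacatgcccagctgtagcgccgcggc
Both strands were searched for CCGGAAG, the core bound by ETS factors such as GABPA, GCATGCGC, the core of the NRF1 site, TGACCTTG, the core of the ERR site, and AAGATGG, the core of the YY1 site. Sdhaf1 held the ETS core on the opposite strand, beginning 15 bases before the start. Ndufaf1 held it 24 bases before the start and again at base 19 after it. Ndufaf5 held the NRF1 core on both strands in overlapping form, beginning 15 and 13 bases before the start. A match is only these letters in this window.

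RefSeq promoters were matched for 59 of the 68 genes. The ETS core was present in 37.3% of them, beside 8.41% of 33469 promoters in the table and 12.3% of the 10690 of genes named on the array. The NRF1 core was present in 16.9%, beside 2.41% and 3.61%, the YY1 core in 16.9%, beside 6.34% and 6.80%, and the ERR core in 3.39%, beside 1.45% and 0.992%. Among 9 matched assembly factors 4 held the ETS core, 2 the NRF1 core and 0 the YY1 or ERR core. Of 50 matched subunits 18 held the ETS core, 8 the NRF1 core, 10 the YY1 core and 2 the ERR core. Nrf1 transcript itself differed by 0.05 between STZ and control rats (adjusted p = 0.873), and Gabpa, which encodes an ETS factor, by -0.36 (adjusted p = 0.304), or -0.16 without STZ replicate 2.

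The neighbouring steps of the pathway were read from 4 lists chosen by function. Of 23 detected genes for electron carriers, ubiquinone synthesis and further assembly factors, 0 passed in STZ against control, with a median of -0.14 and 8 lower and 0 higher at an unadjusted p under 0.05, beside 15.5% lower and 5.36% higher of all probes. Without STZ replicate 2 the median was -0.13 and 5 were lower at an unadjusted p, beside 1161 of 10792 probes in that fit. Between STZ + insulin and STZ rats 3 of 23 were higher, beside 696 of 10718 probes called higher. The median was 0.17, with 10 higher at an unadjusted p, beside 17.7% of all probes. These 3 were Coq7, a hydroxylase of ubiquinone synthesis (1.33, adjusted p = 0.00341), Surf1, an assembly factor of complex IV (0.26, adjusted p = 0.019), and Ecsit, the partner of Ndufaf1 (0.32, adjusted p = 0.0423). Without STZ replicate 2 Coq7 and Surf1 were called, Ecsit was not (0.36, adjusted p = 0.0508), and the median was 0.15 with 6 higher at an unadjusted p. Of all 10792 probes in that fit 306 were called higher and 1495 were higher at an unadjusted p. In STZ against control Surf1 and Ecsit had differences of -0.23 and -0.32 (adjusted p = 0.0635 and 0.0748), and Bcs1l, which inserts the Rieske protein into complex III, one of -0.28 (adjusted p = 0.0873). Cycs, the gene of cytochrome c, had a difference of -0.10 (adjusted p = 0.449).

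Of 22 detected genes of the citrate cycle and pyruvate oxidation 0 passed in any comparison, with 0, 2 lower and 3 higher with 1 lower at an unadjusted p in STZ + insulin against control, STZ against control and STZ + insulin against STZ. The shares of all probes were 8.98% in either direction, 15.5% lower, and 17.7% higher with 9.41% lower, in the same order. The median of STZ minus control was -0.09, or -0.06 without STZ replicate 2, where 0 again passed in STZ against control and in STZ + insulin against STZ. Of 13 detected genes for exchange across mitochondrial membranes 1 passed: Ucp2, an uncoupling protein family member, was lower in STZ + insulin than in STZ rats by 0.51 on the log2 scale (-0.51, adjusted p = 0.0132), and without STZ replicate 2 by 0.48 (-0.48, adjusted p = 0.0351). Of all probes 421 of 10718 were called lower in that comparison, and 243 of 10792 without STZ replicate 2. Of 22 detected regulators of mitochondrial biogenesis and mitochondrial DNA 1 was lower in STZ than in control rats, the fatty acid oxidation receptor gene Ppara (-0.83, adjusted p = 0.0451), beside 204 of 10718 probes called lower, and 0 without STZ replicate 2 (Ppara -0.67, adjusted p = 0.128). Between STZ + insulin and STZ rats 5 of 22 regulators were higher, beside 696 of 10718 probes called higher: Twnk, the mitochondrial DNA helicase (0.63, adjusted p = 0.00795), Pprc1, a coactivator related to PGC-1 (0.55, adjusted p = 0.0147), Polg, the mitochondrial DNA polymerase (0.38, adjusted p = 0.0234), Ppara (0.79, adjusted p = 0.0273) and Mterf1, a mitochondrial transcription termination factor (0.33, adjusted p = 0.0301). Without STZ replicate 2 Twnk and Pprc1 were called, beside 306 of 10792 probes called higher, and Ppara, Polg and Mterf1 had adjusted p of 0.0880, 0.0671 and 0.0892. Ppargc1a, the PGC-1alpha gene, had differences of -0.38 and 0.30 in STZ against control and STZ + insulin against STZ (adjusted p = 0.0965 and 0.127), and Tfam, the packaging and transcription factor of mitochondrial DNA, -0.07 and 0.12.

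Some values are bounded by the probes. Ndufa10 and Ndufa10l1 are near-identical genes, and Ndufs6-ps1 is named as a pseudogene of Ndufs6, so their signals may hold transcripts of the related gene. Besides Cox6a2 and Cox8b, 4 listed genes were not detected by the rule: Ndufs4 (0 arrays), Ndufb4 (6), Cox8c (7) and Atp5mc3 (11), and no level is given for them.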

How the data were processed

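Retinal RNA of 19 arrays (7 control, 5 STZ, 7 STZ + insulin) was measured on Illumina RatRef-12. The authors removed background and brought all arrays to the same average with Illumina's GenomeStudio (1.0.6 per the submitters' processing notes) and deposited linear intensities, beside non-normalized intensities and a second table with 22517 of 22517 identical rows. The deposited detection p-value compares each probe with negative controls. Detection values that accompany the non-normalized intensities (19 columns) were left out. Intensities under 10 were set to 10 and log2-transformed. The groups were compared in 1 model with limma 3.58.1 (R 4.3.3) over 10718 detected probes (detection p under 0.05 throughout 1 or more groups), with Benjamini-Hochberg adjustment and a threshold of 0.05. Platform annotation names 13259 probes, and 68 of 68 Entrez identifiers were found in RefSeq. Members and lists were chosen with earlier results of these data known. Named genes are those called, the 6 of smallest p per comparison and 2 per complex by F test, with others named for their array pattern or role after values were seen. The precision is limited by the number of arrays. The procedure was tested on simulated data. Tables and figures used pandas 2.3.3 and matplotlib 3.10.9. The alternatives were other floors, detection filters and normalizations, the methods' t-test, other limma settings, BeadChip and replicate blocks, each BeadChip alone and each array left out. The lens covariate, median-centred average-normalized signals and the pathway lists without STZ replicate 2 were added after seeing the data.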

Additional observations from a re-analysis of the deposited data

Results flagged for a closer look

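In 54 groups of arrays examined, 2 had an array separated from the rest of its group by more than Dixon's 95% limit, and chance alone gives about 1 in 20. The complex III median of STZ replicate 2 was 0.10, against 0.01 on the nearest other STZ array, and this array also had the highest subunit median. Its subunit, complex I, complex II, complex IV and ATP synthase medians were examined too and were not flagged. Ndufaf6 read 7.90 in control replicate 1, against 8.60 on the nearest other control.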

How the results depend on the processing

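The median difference of all 68 genes moved by less than the pooled SD of the array medians, 0.10, under every alternative run. That SD exceeds the medians themselves, so this is a weak limit, and their sign was not fixed. STZ minus control (main value 0.03) ran from -0.04 to 0.09. STZ + insulin minus STZ (main value -0.01) ran from -0.08 to 0.06, and STZ + insulin minus control (main value 0.01) from -0.04 to 0.06. The number of genes called in STZ against control (main value 1) was 0 with no detection filter, after quantile normalization, with only the groups compared, with array weights, on BeadChip 1 or 2 alone, with the lens covariate and with median-centred signals, 2 by the methods' t-test after Benjamini-Hochberg (Ndufa7 and Atp5f1b, with Sdhaf1 at an adjusted p of 0.0836), 3 by that test at an unadjusted p under 0.05 with a 1.2-fold change (Sdhaf1, Ndufaf1 and Ndufaf7), 8 at limma's unadjusted p and 0 to 1 with 1 array left out. In STZ + insulin against STZ (main value 3) it was 1 with no detection filter, with only the groups compared, by the methods' t-test after adjustment and on BeadChip 2 alone, 0 on BeadChip 1 alone and with the lens covariate, 7 at limma's unadjusted p, 4 by the t-test with the fold limit and 2 to 4 with 1 array left out. In STZ + insulin against control (main value 0) it was 1 at the unadjusted p, beside 8.98% of all probes, and 0 in all others run. Of all probes at limma's unadjusted p, 5.36% were higher and 15.5% lower in STZ against control. In STZ + insulin against STZ the shares were 17.7% higher and 9.41% lower. For the t-test rules the share of all probes is not given here. The assembly factor median of STZ minus control was -0.10 after quantile normalization, -0.094 with neqc and -0.11 with median-centred signals, against -0.16. That of STZ + insulin minus STZ was 0.18 on BeadChip 1, 0.31 on BeadChip 2 and 0.16 with the lens covariate, against 0.24, and 0.21 to 0.30 with 1 array left out (lowest without STZ + insulin replicate 6, highest without STZ replicate 3), and that of STZ + insulin minus control was -0.013 on BeadChip 1, against 0.07. No alternative turned a called difference round, and the cause of each change was not tested. Over all probes, 102 and 584 were called with only the groups compared, and 107 and 595 with no filter, against 299 and 1117.

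The replicate numbers share only a number: deviations of same-numbered arrays correlated from -0.24 to 0.27 over 17 pairs, with 4 over 0.1, and 2 of 19 arrays correlated best with their own number. With the replicate block 0 genes were called in STZ against control, 0 in STZ + insulin against control and 1, Sdhaf1, in STZ + insulin against STZ. Averaging several probes of a gene was not run, since each gene had 1 detected probe.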
